A study of Mus musculus with 2 samples.

Results

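Naive-like CD8 T cells of the mouse liver are described here: T cells that carry the CD8 co-receptor and transcripts of resting cells that have not met their antigen. They were chosen from single-cell transcript counts by a rule on single genes. Among cells in which 300 or more genes were detected and mitochondrial counts were below 20%, a cell was taken when it had at least 1 UMI (unique molecular identifier, 1 per captured transcript) of Cd3d, Cd3e and Cd3g together, at least 2 of Cd8a and Cd8b1 together, at least 2 of Dapl1 and Lef1 together, none of Cd4, and under 3 of the cell-cycle genes Mki67, Top2a and Birc5 together. The rule gave 1235 cells of 18867 kept cells, 729 of 8877 in the PKM2ΔMAC library and 506 of 9990 in the PKM2FL/FL library. The levels of the genes in the rule chose the cells and are given only as a description.

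A naive CD8 T cell leaves the thymus, circulates through blood and lymphoid organs with the help of the homing receptor CCR7, and is kept alive by interleukin-7 and by weak contact with self peptide on MHC class I. The transcription factors TCF-1 (Tcf7) and LEF-1 (Lef1) maintain its resting state. On meeting antigen it divides, lowers these genes and gains the granzymes, chemokines and interferon-γ of an effector or memory cell, the forms that commonly reside in an inflamed liver.

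The cells came from liver non-parenchymal preparations, the immune, endothelial and stromal cells left when hepatocytes are taken away, obtained by perfusion and a density gradient. The livers were those of PKM2ΔMAC mice (ΔMAC below) and of PKM2FL/FL mice (FL/FL below), both after 8 weeks on an MCD diet, which lacks methionine and choline and causes fatty, inflamed liver. PKM2 is an isoform of the glycolytic enzyme pyruvate kinase encoded by Pkm. The sources used here do not give the Cre driver behind the ΔMAC genotype, nor the number, age and sex of the mice. Each genotype had 1 library, so no difference between genotypes has a replicate check and none was tested. The intervals given (95%) describe counting error alone and say nothing of how mice or preparations vary.

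The ΔMAC library held 8949 barcodes with 43134027 UMIs and the FL/FL library 10054 barcodes with 54519921 UMIs. The libraries shared 17 barcodes, none of them (0) among the naive-like cells. The naive-like cells were deeper than the library medians of 3791 and 4504.5 UMIs, with a median of 7432 UMIs and 1943 genes per cell in ΔMAC and 7132.5 UMIs and 1970 genes in FL/FL. Ribosomal protein genes made up a median of 45.9% of their UMIs in ΔMAC and 44.0% in FL/FL, and mitochondrial genes 3.35% and 3.22%. Scrublet called 47 of them doublets in ΔMAC (6.45%) and 43 in FL/FL (8.50%). At least 3 UMIs of markers of other cell types, NK cell genes included, were found in 276 of the ΔMAC cells (37.9%) and 208 of the FL/FL cells (41.1%). The NK genes include Eomes and Gzma, which memory or effector CD8 T cells transcribe themselves. The macrophage genes include Lyz2, which was nearly absent in ΔMAC. Leaving such cells out thus also takes out memory-like CD8 T cells, and does not act alike in the libraries.

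Levels are pooled CPM: the UMIs of a gene over all cells of a class in a library, per 1000000 UMIs of that class. The lineage genes that the rule used stood at 255.4 CPM for Cd8a and 562.3 CPM for Cd8b1 in ΔMAC, against 263.5 CPM and 607.5 CPM in FL/FL. Cd8a and Cd8b1 encode the chains of the CD8 co-receptor, and both were seen in 578 cells of ΔMAC (79.3%) and 386 of FL/FL (76.3%), which is the αβ form of conventional T cells. Dapl1, a gene marking resting T cells, stood at 244.1 CPM in ΔMAC and 219.8 CPM in FL/FL. Lef1 stood at 390.1 CPM in ΔMAC and 403.4 CPM in FL/FL. Most cells entered through Lef1: both genes were seen in 403 ΔMAC cells (55.3%) and 270 FL/FL cells (53.4%), Lef1 without Dapl1 in 289 (39.6%) and 213 (42.1%), and Dapl1 without Lef1 in 37 and 23.

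Markers outside the rule were read against B cells, which should lack them and so show what free RNA gives. For this, each cell was thinned to 1500 UMIs, which left out 7 naive-like cells of ΔMAC and 1 of FL/FL, and 181 and 71 B cells. Nsg2, a marker of recently formed and naive T cells, was then seen in 16.9% of naive-like cells in ΔMAC (56.4% without thinning) and 12.7% in FL/FL (47.8% without thinning), against 0.264% and 0.181% of B cells. Tcf7 was seen in 37.7% and 39.4% of the naive-like cells of ΔMAC and FL/FL after thinning (87.7% and 87.4% without it), against 1.67% and 1.63% of B cells. The interleukin-7 receptor gene Il7r was seen in 67.7% and 62.6% after thinning (95.6% and 93.3% without it), against 3.91% and 3.85% of B cells. These markers set the cells apart from B cells. CD8 T cells with no UMI of Dapl1 or Lef1 carried them too. In ΔMAC those had 68.4 CPM of Nsg2, 270.0 CPM of Tcf7 and 628.9 CPM of Il7r, and in FL/FL 31.3, 138.5 and 369.5 CPM. The reading against B cells thus does not tell naive from memory T cells. Ccr7 is also a gene of naive B cells, so B cells give no background for it.

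Some genes of experienced T cells were present as well. The B cells were shallower before thinning, with medians of 2790 UMIs in ΔMAC and 3256 in FL/FL. Ccl5, a chemokine of memory and effector cells, was seen in 41.1% of thinned naive-like cells in ΔMAC (65.8% unthinned) and 41.4% in FL/FL (66.8% unthinned), against 18.0% and 22.6% of B cells. The cytotoxic granule gene Nkg7 was seen in 45.3% and 45.5%, against 5.01% and 6.39% of B cells. The same reading put Gzmb, encoding granzyme B, at 1.94% in ΔMAC and 3.56% in FL/FL, against 2.20% and 3.22% of B cells, so it could not be told apart from free RNA by this reading. The cells are therefore called naive-like, by their rule, and a share of memory cells that keep Lef1 was not separated out.

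The naive-like class was larger in the ΔMAC library. It made up 8.21% of kept cells in ΔMAC (7.65 to 8.80%, Clopper-Pearson interval) and 5.07% in FL/FL (4.64 to 5.51%), a ratio of 1.62 (1.45 to 1.82). Among cells with a Cd3 UMI it made up 27.7% of 2628 cells in ΔMAC and 15.1% of 3343 cells in FL/FL, a ratio of 1.83 (1.63 to 2.06). Within CD8 T cells, meaning all cells that pass the same gate without the demand for Dapl1 and Lef1, the difference was smaller. There it made up 66.8% of 1091 cells in ΔMAC (63.9 to 69.6%) and 54.7% of 925 cells in FL/FL (51.4 to 57.9%), a ratio of 1.22 (1.09 to 1.37). CD8 T cells as a whole were 12.3% of kept cells in ΔMAC and 9.26% in FL/FL, a ratio of 1.33 (1.22 to 1.45).

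The neighbouring classes did not all go this way. CD8 T cells with 1 UMI of Dapl1 or Lef1 made up 1.80% of kept cells in ΔMAC and 1.54% in FL/FL, a ratio of 1.17 (0.931 to 1.47). CD8 T cells with no UMI of Dapl1 or Lef1 (Dapl1- and Lef1-free CD8 T cells below) numbered 202 in ΔMAC and 265 in FL/FL, or 2.28% and 2.65% of kept cells, a ratio of 0.858 (0.711 to 1.03). Naive-like CD4 T cells were gated by the same Cd3, Dapl1, Lef1 and cell-cycle limits. They needed at least 1 UMI of Cd4, below the 2 asked of the CD8 genes, and none of Cd8a, Cd8b1 or Foxp3. These CD4 cells numbered 56 in ΔMAC and 148 in FL/FL, or 0.631% and 1.48% of kept cells, a ratio of 0.426 (0.307 to 0.583). The larger share of naive-like cells in ΔMAC was thus seen in CD8 cells and not in CD4 cells of these libraries. Shares of this kind depend on what else each preparation held and on the number of UMIs per cell.

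Cells were therefore also thinned to 1 depth before the rule was applied, at 1500 UMIs and, chosen after seeing the data, at 3000 and 5000 UMIs. Shallower cells were left out, more of them in ΔMAC, which kept 8094, 5597 and 3329 of its 8877 cells at these depths, against 9404, 7629 and 4349 of 9990 in FL/FL, so the cells behind each share also changed. At 1500 UMIs 71 cells in ΔMAC and 61 in FL/FL still met the rule, a ratio of 1.35 (0.947 to 1.94). At 3000 UMIs the ratio was 1.61 (1.33 to 1.95), from 247 cells in ΔMAC and 209 in FL/FL, and at 5000 UMIs it was 1.81 (1.57 to 2.09), from 458 and 331. Within CD8 T cells the ratios at these depths were 1.16 (0.815 to 1.67), 1.05 (0.871 to 1.27) and 1.14 (0.988 to 1.32), all with intervals that reach 1. The Dapl1- and Lef1-free class, which after thinning also holds cells whose Dapl1 and Lef1 transcripts were drawn out, had ratios among kept cells of 1.05 (0.862 to 1.28), 1.34 (1.13 to 1.60) and 1.23 (0.993 to 1.52). All CD8 T cells together had 1.16, 1.53 and 1.58, and cells with a Cd3 UMI 0.910, 1.01 and 1.02, against 0.885 without thinning, so the shares of wider classes moved as well. At each depth the ratio of the naive-like class was above that of the Dapl1- and Lef1-free class. The class with 1 UMI of Dapl1 or Lef1 had ratios of 1.34 (0.965 to 1.86), 1.77 (1.42 to 2.22) and 1.52 (1.19 to 1.95). At 3000 UMIs its ratio was above that of the naive-like class. Naive-like CD4 T cells stayed lower in ΔMAC, with ratios of 0.581 (0.243 to 1.30), 0.584 (0.358 to 0.931) and 0.473 (0.273 to 0.791).

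**Figure D1:**
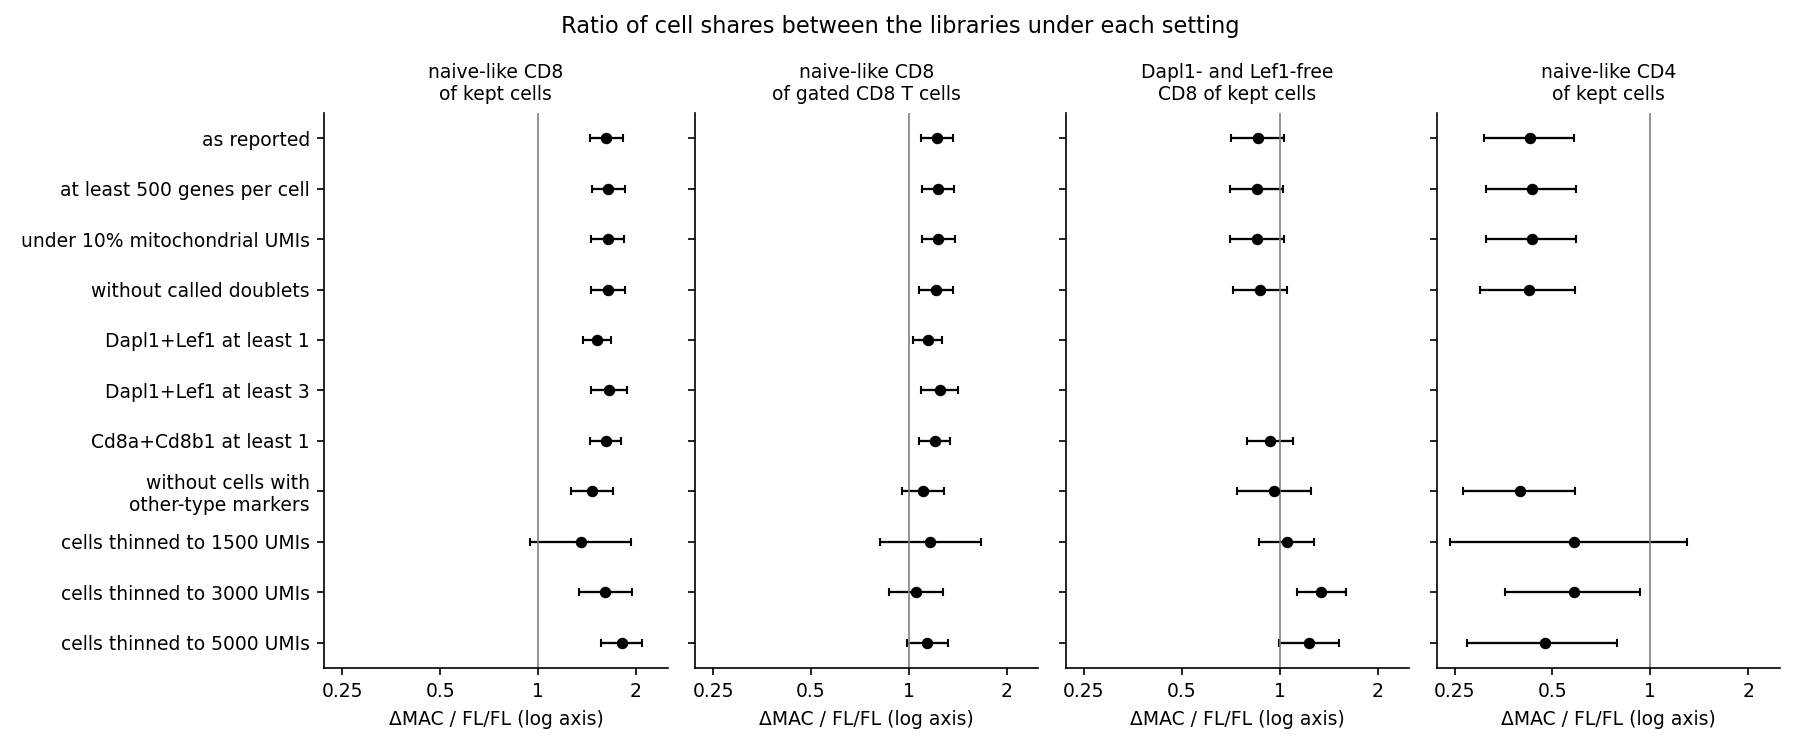
Ratio of the share of cells, ΔMAC over FL/FL library (log axis, 1 panel per class and denominator), under each setting of the cell filters, the rule and the depth; bars are exact 95% intervals that cover counting error only. Naive-like CD8 T cells stay above 1 among kept cells, from 1.35 to 1.81, naive-like CD4 T cells stay below 1, and Dapl1- and Lef1-free CD8 T cells lie above 1 when cells are thinned and shallower ones left out.

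The rule cuts a range of counts, and the step at the threshold differed between genes. Cells just inside it, with 2 UMIs of Dapl1 and Lef1, numbered 150 in ΔMAC and 111 in FL/FL. Cells just outside, with 1 UMI, numbered 160 and 154. Ccr7 stood at 369.5 CPM just inside and 335.2 CPM just outside in ΔMAC, and at 286.1 CPM and 204.0 CPM in FL/FL. Its intervals overlapped in ΔMAC and did not in FL/FL. Ccl4 had a larger step, at 305.4 CPM just inside and 543.5 CPM just outside in ΔMAC, and at 90.4 CPM and 642.7 CPM in FL/FL. Ccl5 stood at 2134 CPM just inside and 3238 CPM just outside in ΔMAC, and at 2811 CPM and 5918 CPM in FL/FL. Cells with 3 to 5 UMIs were the largest bin in ΔMAC, 339 cells or 31.1% of CD8 T cells. In FL/FL it was the bin without either transcript, 265 cells or 28.6%. The bin of 3 to 5 pools several counts, so which bin is largest depends on bin width. Among the single counts of 0, 1 and 2, 0 was the most frequent in both libraries, with 202 cells in ΔMAC.

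**Figure D2:**
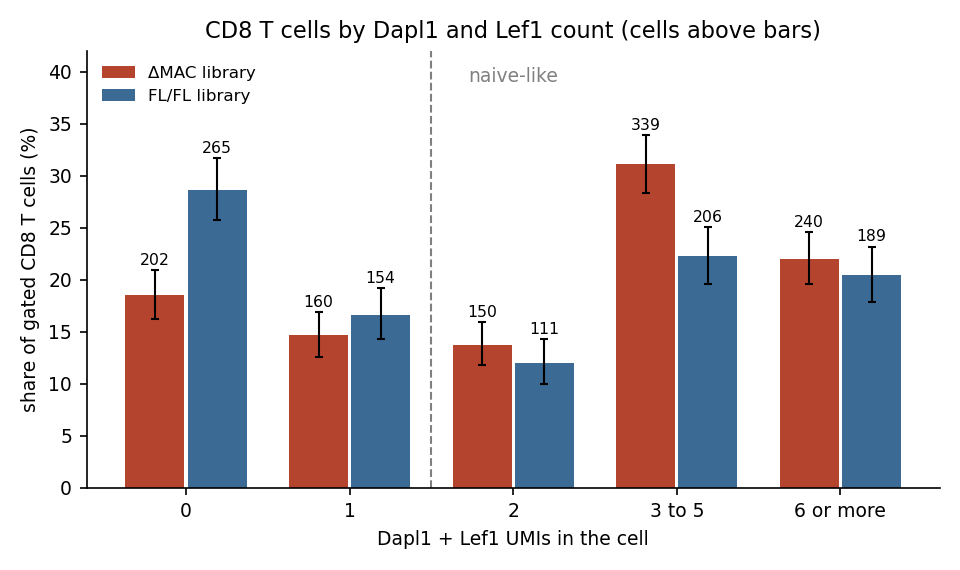
Share of gated CD8 T cells (%) by the number of Dapl1 and Lef1 UMIs in the cell, for the ΔMAC and FL/FL libraries, with cell counts above the bars and Clopper-Pearson 95% intervals. The dashed line is the threshold of the naive-like rule; the bin at 0 holds 18.5% of CD8 T cells in ΔMAC and 28.6% in FL/FL, and the bin of 3 to 5 holds 31.1% and 22.3%.

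Across these bins the genes of resting and of activated cells ran in opposite directions. Igfbp4, a binding protein of insulin-like growth factors that naive T cells transcribe, was at 20.3, 39.3, 44.7, 66.9 and 104.7 CPM in the bins of 0, 1, 2, 3 to 5 and 6 or more UMIs in ΔMAC, and at 15.9, 41.0, 47.1, 107.4 and 158.4 CPM in FL/FL. The granzyme gene Gzmb was at 350.5, 135.0, 42.2, 15.9 and 16.6 CPM in ΔMAC and at 436.9, 246.7, 74.3, 52.2 and 35.1 CPM in FL/FL. Ly6c2, which encodes the surface protein Ly6C found on naive and memory CD8 T cells alike, was lower in the last bin than in the first in ΔMAC and about even in FL/FL, at 937.8, 1023, 900.2, 751.9 and 721.1 CPM in ΔMAC and 585.8, 731.5, 652.7, 676.5 and 568.4 CPM in FL/FL. Bins share the libraries and their depth, so these courses are a description.

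**Figure D3:**
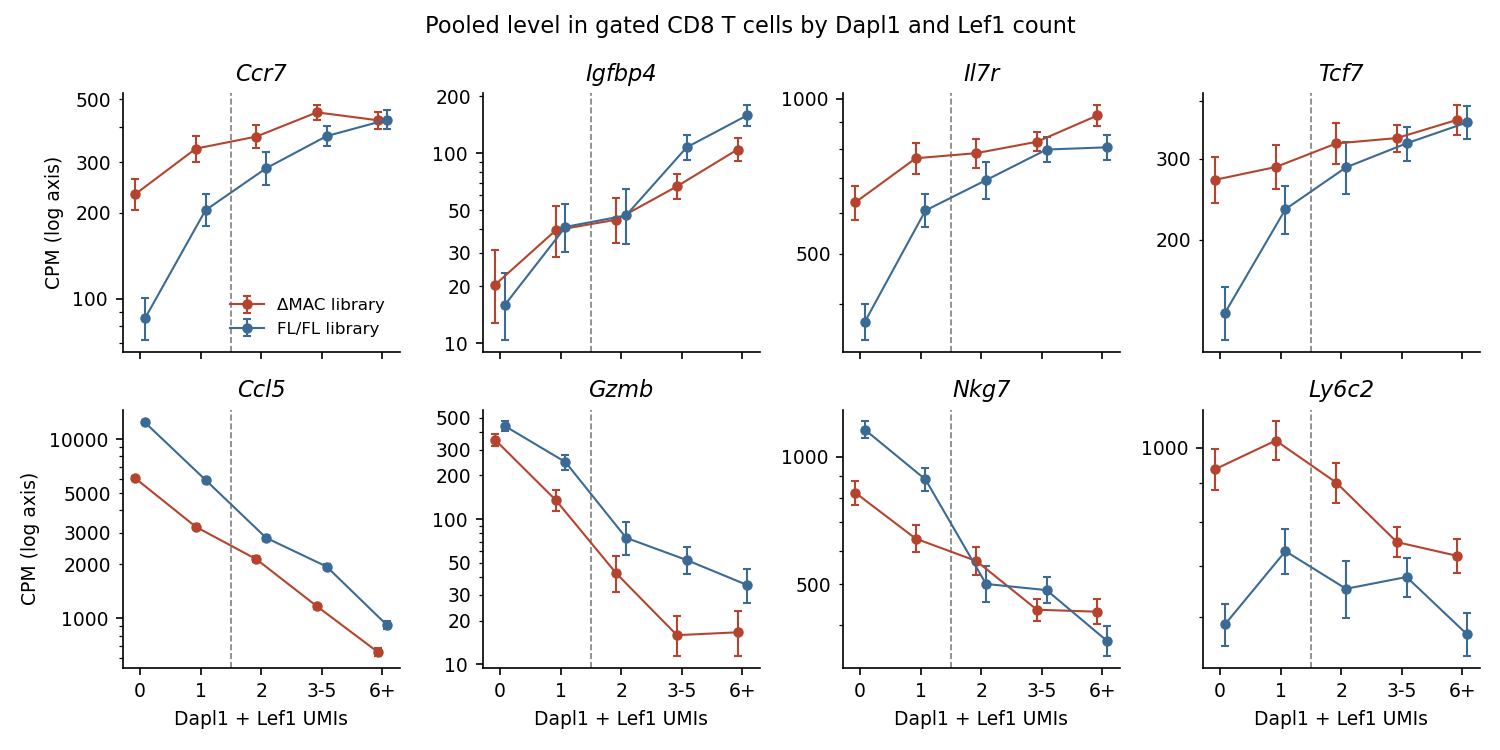
Pooled level (CPM, log axis) of 8 genes in gated CD8 T cells by the number of Dapl1 and Lef1 UMIs in the cell, in the ΔMAC and FL/FL libraries, with exact Poisson 95% intervals; the dashed line is the threshold of the rule. Ccr7, Igfbp4, Il7r and Tcf7 are higher in the last bin than in the first and Ccl5, Gzmb and Nkg7 lower; in the bin at 0 Ccr7 stands at 232.1 CPM in ΔMAC, against 85.2 CPM in FL/FL.

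Naive-like cells were next set against the Dapl1- and Lef1-free CD8 T cells of the same library, which were shallower, with medians of 5205 UMIs in ΔMAC and 5586 in FL/FL. A gene was counted where it was at least 2-fold apart in the same direction in both libraries, among 1412 genes with at least 100 UMIs and 100 CPM. By this rule 5 genes were higher in naive-like cells (0.354%) and 38 were lower (2.69%). The 5 included Dapl1 and Lef1, which the rule fixes, the unnamed transcript 5730508B09Rik, Igfbp4 and Rgs10. Per library the counts were 5 higher (0.354%) and 45 lower (3.19%) in ΔMAC, and 18 higher (1.27%) and 71 lower (5.03%) in FL/FL. With TMM factors 11 genes were higher and 29 lower. Erythroid transcripts also differed, with 193.5 CPM over 4 markers in naive-like and 13.9 CPM in Dapl1- and Lef1-free cells of ΔMAC, and 66.2 CPM and 11.6 CPM in FL/FL. Of the 550 Hbb-bs UMIs in naive-like cells of ΔMAC 533 lay in 1 cell, and of the 66 in FL/FL 49 lay in 1 cell.

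Igfbp4 was at 75.4 CPM in naive-like cells and 20.3 CPM in Dapl1- and Lef1-free cells of ΔMAC, a ratio of 3.71 (2.42 to 5.97). In FL/FL it was at 115.7 CPM and 15.9 CPM, a ratio of 7.26 (4.90 to 11.2). Rgs10, a regulator of G protein signalling that acts downstream of chemokine receptors, had 166.4 and 78.6 CPM in ΔMAC, a ratio of 2.12 (1.69 to 2.67), and 139.9 and 58.8 CPM in FL/FL, a ratio of 2.38 (1.91 to 2.98). The next genes in rank were short of 2-fold in ΔMAC, and all but Foxp1 and Npc2 passed it in FL/FL. Among them Slamf6, a surface receptor of stem-like T cells, had ratios of 1.83 in ΔMAC and 2.24 in FL/FL, and Nsg2 had 1.80 and 3.03. Sh3bp5 had 1.79 and 2.56, and the sialic acid hydroxylase gene Cmah 1.55 and 3.10. Pik3ip1, an inhibitor of PI3-kinase that naive T cells express, had 1.51 and 2.62, the phosphatase gene Dusp10 1.44 and 2.42, and the actin crosslinker gene Actn1 1.52 and 3.17. Foxp1, a transcription factor needed for T cell quiescence, had 1.51 and 1.59, and Npc2, a lysosomal cholesterol carrier, 1.43 and 1.59.

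Igfbp4 (ENSMUSG00000017493, chr11:99041244-99054392, plus strand, mm10) and Rgs10 are shown with their promoters beside that of Lef1, because LEF-1 and TCF-1 bind a core motif that can be read in the sequence. The windows run from 250 bases before to 50 bases after a start in RefSeq (GRCm38.p6), and capitals mark the motif CTTTGA or its reverse complement TCAAAG, searched on both strands. The Lef1 window is chr3:131156044-131156343 (plus strand, 1 of 4 Lef1 starts in the table), the Igfbp4 window chr11:99040994-99041293 (plus strand) and the Rgs10 window chr7:128418123-128418422 (minus strand), each written 5′ to 3′.
Lef1: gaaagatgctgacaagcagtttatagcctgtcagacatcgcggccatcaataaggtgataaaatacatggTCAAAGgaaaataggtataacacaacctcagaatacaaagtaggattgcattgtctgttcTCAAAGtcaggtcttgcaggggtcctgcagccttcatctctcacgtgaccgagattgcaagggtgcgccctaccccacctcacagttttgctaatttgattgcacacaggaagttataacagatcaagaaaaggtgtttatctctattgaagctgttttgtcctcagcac
Igfbp4: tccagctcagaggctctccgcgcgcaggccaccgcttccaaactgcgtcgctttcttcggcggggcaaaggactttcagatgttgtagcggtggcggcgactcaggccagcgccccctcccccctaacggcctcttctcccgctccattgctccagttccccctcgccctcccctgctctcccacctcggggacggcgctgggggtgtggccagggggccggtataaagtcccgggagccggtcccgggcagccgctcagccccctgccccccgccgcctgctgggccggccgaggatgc
Rgs10: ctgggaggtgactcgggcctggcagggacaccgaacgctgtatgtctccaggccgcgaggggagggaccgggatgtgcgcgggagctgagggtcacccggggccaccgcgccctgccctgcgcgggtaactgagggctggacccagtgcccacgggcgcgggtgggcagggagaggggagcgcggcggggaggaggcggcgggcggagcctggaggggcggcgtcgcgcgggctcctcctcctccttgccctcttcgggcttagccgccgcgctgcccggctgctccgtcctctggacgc
The Lef1 window has the motif at 2 places, starting 180 and 120 bases before the start, and was picked for them, since the windows of the other 3 Lef1 starts hold 0 matches. The Igfbp4 and Rgs10 windows hold none of these letters. The 14 genes looked for were Dapl1, Lef1 and the genes named as higher in naive-like than in Dapl1- and Lef1-free cells. Of these 13 were in the table and 4 had a match (Lef1, Cmah, Foxp1 and Npc2), or 30.8%, against 18.2% of all 27025 genes. By promoter, 4 of their 21 (19.0%) had a match, against 16.0% of all 32851. The genes are few and were partly chosen by Lef1 itself, so nothing is read from these shares. A match is a description of letters and not a binding site.

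Known homing and survival genes of naive cells are given next, with ratios that were mostly short of 2-fold in ΔMAC. Ccr7 (ENSMUSG00000037944, chr11:99144196-99155077, minus strand), the receptor for lymph node chemokines, had 423.3 CPM in naive-like and 232.1 CPM in Dapl1- and Lef1-free cells of ΔMAC, a ratio of 1.82 (1.60 to 2.09). In FL/FL it had 375.1 CPM and 85.2 CPM, a ratio of 4.40 (3.70 to 5.28). The ratios of Tcf7 were 1.27 (1.12 to 1.44) in ΔMAC and 2.39 (2.08 to 2.76) in FL/FL. Il7r had 1.35 and 2.11, the chromatin organiser gene Satb1 1.37 and 1.97, and S1pr1, the receptor for exit from lymphoid organs, 1.20 and 1.90. Klf2, a factor that drives S1pr1, was close to even, with 1.22 and 1.23. Of 25 naive and quiescence genes outside the rule, 24 had at least 50 UMIs, 1 passed 2-fold higher in both libraries (Igfbp4), none (0) lower, and their median log2 ratio was 0.25, where a gene's value is that of the library nearer to 1. Over all 8894 genes with at least 50 UMIs 0.562% were higher, 2.07% lower and the median was -0.02.

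Several of these ratios were smaller in ΔMAC, where the level in Dapl1- and Lef1-free cells was higher. In those cells Ccr7 was 2.73-fold (2.21 to 3.38) higher in ΔMAC than in FL/FL, against 1.13-fold (1.06 to 1.20) in naive-like cells. Tcf7 was 1.95-fold higher there against 1.03-fold, Actn1 2.33-fold against 1.12-fold and Il7r 1.70-fold against 1.09-fold. Igfbp4 went otherwise: its level in Dapl1- and Lef1-free cells was 20.3 CPM (12.8 to 30.8) in ΔMAC and 15.9 CPM (10.4 to 23.3) in FL/FL, while its level in naive-like cells was lower in ΔMAC. The difference between the 2 classes in these ratios was not tested, and these genes were chosen after their values were seen.

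Among the lower genes were many of effector function. Gzmb had 21.5 CPM in naive-like and 350.5 CPM in Dapl1- and Lef1-free cells of ΔMAC, a ratio of 0.0615 (0.0498 to 0.0755), and 49.8 CPM and 436.9 CPM in FL/FL, a ratio of 0.114 (0.0971 to 0.133). Ccl5 had 1186 CPM and 6044 CPM in ΔMAC, a ratio of 0.196, and 1705 CPM and 12387 CPM in FL/FL, a ratio of 0.138. Ccl4, a chemokine of activated T cells, had ratios of 0.144 in ΔMAC and 0.149 in FL/FL, and Ccl3, its close relative, 0.217 and 0.314. Ifng, the interferon-γ gene, had 0.10 and 0.205. Of 16 effector and cytotoxic genes with at least 50 UMIs, 10 were lower in both libraries (Gzma, Gzmb, Gzmk, Ccl3, Ccl4, Ccl5, Ifng, Fasl, Id2 and Tbx21) and none (0) higher, with a median log2 ratio of -1.48. Id2 and Tbx21 are the transcription factors of effector differentiation, with ratios of 0.344 and 0.369 in ΔMAC and 0.319 and 0.372 in FL/FL.

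Some genes of tissue residence, inhibition and memory were also past 2-fold. Cxcr6, which holds T cells in liver sinusoids, had 20.7 CPM in naive-like and 94.3 CPM in Dapl1- and Lef1-free cells of ΔMAC, a ratio of 0.219 (0.167 to 0.288), and 43.5 CPM and 167.9 CPM in FL/FL, a ratio of 0.259 (0.213 to 0.314). Of 17 homing and retention receptors 4 were lower in both libraries, Cxcr3, Cxcr6 and Itga1 among them, with a median of -0.40. Among the inhibitory receptors, Pdcd1, which encodes PD-1, had 0.869 CPM in naive-like and 18.5 CPM in Dapl1- and Lef1-free cells of ΔMAC, and 3.42 CPM and 74.1 CPM in FL/FL. With Pdcd1, Lag3, Cd160, Cd244 and Entpd1, 5 of the 9 measured inhibitory receptors and exhaustion genes were lower, with a median of -1.54. Of 14 memory genes 5 were lower (Cxcr3, Klrk1, Klrc1, Klrc2 and Ly6a), with a median of -0.86. Il2rb, the shared receptor chain for interleukins 2 and 15, had ratios of 0.530 and 0.521, Cd44 0.554 and 0.683, and Eomes, a factor of memory cells, 0.574 and 0.361.

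Further named genes on the lower side were Serpina3g, a protease inhibitor of activated cells, with ratios of 0.110 in ΔMAC and 0.168 in FL/FL, the signalling regulator Rgs1, a gene of tissue-resident T cells, with 0.141 and 0.249, and Cd160 with 0.231 and 0.174. The secreted immunoregulator Fgl2 had 0.265 and 0.187, the transcription factor Bhlhe40 0.299 and 0.278, and the interferon-induced chemokine Cxcl10 0.235 and 0.307. Of 23 type I interferon response genes 6 were lower (Ifit1, Ifit3, Isg15, Isg20, Mx1 and Rtp4), with a median of -0.55. No gene passed the fold in the lists of T cell receptor signalling (17 measured, median -0.26), glycolysis (17, median -0.17), MHC class I and peptide loading (12, median -0.47) and ribosomal proteins (84, median 0.24), a count of 0 in each direction.

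**Figure D4:**
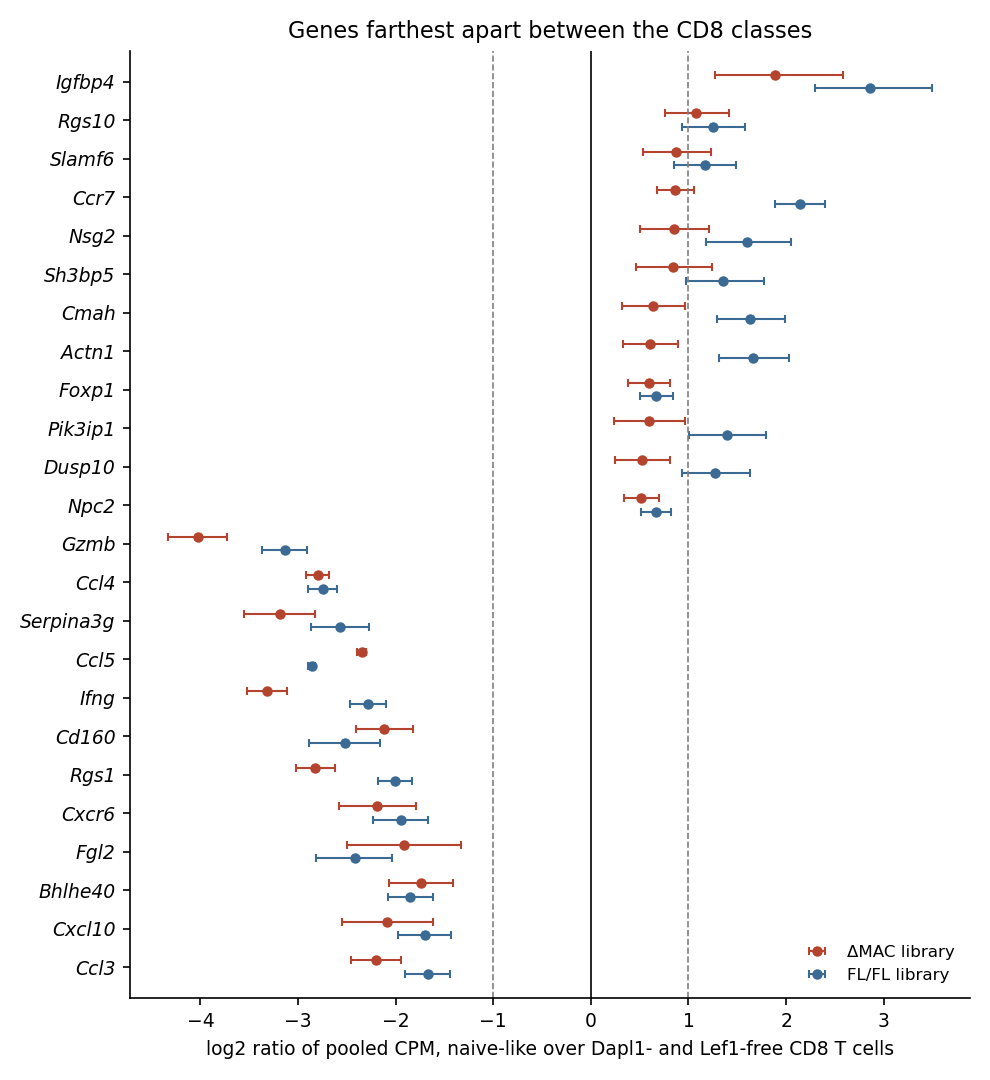
Log2 ratio of pooled CPM, naive-like over Dapl1- and Lef1-free CD8 T cells, in the ΔMAC and FL/FL libraries, for the 12 highest and 12 lowest genes by the library nearer to 0, with exact conditional 95% intervals; dashed lines mark 2-fold. Igfbp4 and Rgs10 pass 2-fold on the right in both libraries, while the 12 genes on the left all pass it, from Gzmb to Ccl3.

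Naive-like CD4 T cells, which entered by the same resting genes, were compared next. The ΔMAC class of 56 CD4 cells is small, and it held 1692 CPM of the neutrophil gene S100a8, against 166.2 CPM in the 148 FL/FL cells. Of 1375 genes 6 were at least 2-fold higher in naive-like CD8 cells in both libraries (0.436%) and 15 lower (1.09%). The 6 were Cd8a and Cd8b1 of the rule, 5730508B09Rik, Klrd1, Ccl4 and Ly6c2. Klrd1, the CD94 chain of a receptor for nonclassical MHC class I, had 215.6 CPM in CD8 and 33.4 CPM in CD4 cells of ΔMAC, a ratio of 6.45 (3.49 to 13.5), and 201.0 CPM and 83.7 CPM in FL/FL, a ratio of 2.40 (1.89 to 3.08). Ly6c2 had ratios of 5.92 (4.32 to 8.34) and 3.13 (2.69 to 3.66), and Ccl4 4.18 and 3.49. The next genes in rank were short of 2-fold in FL/FL, Nkg7 with 4.75 and 1.82, the cathepsin gene Ctsw with 2.87 and 1.80, the small homeodomain protein gene Hopx with 2.53 and 1.86, Plac8 with 2.79 and 1.78, and Ccl5 with 2.05 and 1.81. Of 14 measured effector and cytotoxic genes 2 were 2-fold higher in both libraries (Ccl3 and Ccl4) and none (0) lower, with a median log2 ratio of 0.34.

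On the CD4 side stood Ly6c1, at 0.174 CPM, a single UMI (1), in CD8 and 130.4 CPM in CD4 cells of ΔMAC, and at 1.95 CPM and 110.5 CPM in FL/FL. Its ratios were 0.00133 (3.29e-05 to 0.00787) and 0.0177 (0.00743 to 0.0362), the opposite of its paralog Ly6c2. These paralogs are near-identical in sequence, so how the authors' counting split their reads is uncertain. Pdlim4 had ratios of 0.0115 and 0.0699, the motor protein gene Myo6 0.0551 and 0.102, Tmem64 0.216 and 0.174, the transcription factor Maf 0.168 and 0.298, the stem cell antigen gene Ly6a 0.239 and 0.268, and Tspan32 0.307 and 0.306. Igfbp4 was lower in CD8 than in CD4 cells, at 75.4 CPM against 381.1 CPM in ΔMAC, a ratio of 0.198 (0.161 to 0.245), and at 115.7 CPM against 451.9 CPM in FL/FL, a ratio of 0.256 (0.224 to 0.293). Its level thus ordered the classes as Dapl1- and Lef1-free CD8, naive-like CD8 and naive-like CD4 T cells, with intervals that did not overlap in either library. Ccr7 was about even, with ratios of 1.06 (0.878 to 1.28) and 0.960 (0.855 to 1.08). Of 14 memory genes with at least 50 UMIs 3 were higher in CD8 cells (Ly6c2, Eomes and Klrd1) and 1 lower (Ly6a), where 1.08% of all 8597 such genes were higher and 0.919% lower.

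The last comparison was between the genotypes within naive-like CD8 T cells. Pkm (ENSMUSG00000032294, chr9:59656368-59679375, plus strand), the gene that the genotype names, had 123.5 CPM in ΔMAC and 189.0 CPM in FL/FL, a ratio of 0.654 (0.589 to 0.724). Its ratio was 0.742 in Dapl1- and Lef1-free CD8 T cells, 0.670 in naive-like CD4 T cells and 0.688 in B cells, so it was lower in ΔMAC in each of the 4 classes. The tags lie at the 3′ end of the transcript, which may be outside the deleted stretch, so the gene does not check the genotype here. Without the cells that carry markers of other types the log2 ratio of Pkm was -0.27, against -0.61 with them.

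Of 1130 genes with at least 100 UMIs and 100 CPM, 6 were at least 1.5-fold higher in ΔMAC (0.531%) and 22 lower (1.95%), with a median log2 ratio of -0.05. The balance depended on scaling. With TMM factors the median was 0.12, and 36 genes were higher and 16 lower. The 6 included Erdr1, Xcl1, Tmsb4x, Crip1 and the predicted gene Gm26825, and 5 of them, all but Xcl1, were called in each of the 8 alternatives tried. Of the 22 lower genes 3 were called in each, the named one being Cirbp.

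Erdr1 was the highest of the named genes, at 259.5 CPM in ΔMAC and 78.1 CPM in FL/FL, a ratio of 3.32 (2.94 to 3.76). It was seen in 569 of 729 cells in ΔMAC and 211 of 506 in FL/FL. Its ratio was 4.53 in Dapl1- and Lef1-free CD8 T cells, 2.85 in naive-like CD4 T cells and 3.17 in B cells. The gene is annotated on chromosome Y in mm10, in the stretch shared with X, and repeats there make its counts uncertain. Both libraries carried Y-linked transcripts in these cells, 231.2 CPM of 4 Y-linked genes in ΔMAC and 189.5 CPM in FL/FL, with Xist listed at 0 CPM and 0.244 CPM.

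Tmsb4x, which encodes the actin-binding peptide thymosin β4, had 14239 CPM in ΔMAC and 7974 CPM in FL/FL, a ratio of 1.79 (1.76 to 1.81). The ratio was 1.71, 2.11 and 1.95 in Dapl1- and Lef1-free CD8, naive-like CD4 and B cells. Crip1, a LIM-domain protein of memory and tissue T cells, had 809.1 CPM and 500.3 CPM, a ratio of 1.62 (1.54 to 1.70). Its ratio was 2.04 and 2.08 in the other T cell classes but 0.780 in B cells. Erdr1 and Tmsb4x were thus higher in ΔMAC in all 4 lymphocyte classes compared.

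Xcl1, the chemokine lymphotactin that draws cross-presenting dendritic cells, had 149.9 CPM in ΔMAC and 83.3 CPM in FL/FL, a ratio of 1.80 (1.59 to 2.05). The transcripts sat in 137 and 83 cells, with up to 165 UMIs in 1 cell of ΔMAC and 73 in 1 of FL/FL, and the log2 ratio was 0.37 in cells with at least 3 UMIs of Dapl1 and Lef1. Its ratio was 0.952 in Dapl1- and Lef1-free CD8 T cells. Ccl4 was at 181.5 CPM in ΔMAC and 124.5 CPM in FL/FL, a ratio of 1.46, and was seen in 226 of 729 and 116 of 506 cells. The other genes named as highest were short of 1.5-fold. They were Timm13, a mitochondrial import chaperone (1.49), St13, a cofactor of Hsp70 (1.48), the galectin gene Lgals1 (1.48), the mRNA export factor Alyref (1.47) and Nhp2, a component of small nucleolar particles (1.45). S100a9, a neutrophil gene, had 453.7 CPM in ΔMAC and 302.5 CPM in FL/FL, and up to 458 and 181 of its UMIs sat in 1 cell.

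Cirbp (chr10:80165985-80172786, plus strand), a cold-inducible RNA-binding protein, was the lowest named gene, at 56.1 CPM in ΔMAC and 171.7 CPM in FL/FL, a ratio of 0.327 (0.286 to 0.373). It was lower in ΔMAC in the other classes as well, with 0.272 in Dapl1- and Lef1-free CD8, 0.252 in naive-like CD4 and 0.623 in B cells. Ypel3, a growth-restraining gene of resting cells, had 96.2 CPM and 155.1 CPM, a ratio of 0.621 (0.553 to 0.697), and passed 1.5-fold in 7 of 8 alternatives. The atypical IκB gene Nfkbiz had 0.649 (0.579 to 0.727) and passed it in 1 of 8. Igfbp4, ranked first among the genes higher in naive-like than in Dapl1- and Lef1-free CD8 T cells, had 75.4 CPM in ΔMAC and 115.7 CPM in FL/FL, a ratio of 0.651 (0.571 to 0.744), past 1.5-fold in 6 of 8 alternatives. In the bin just inside the rule it was even, 44.7 and 47.1 CPM, and it was lower in ΔMAC in the bins above, 66.9 against 107.4 CPM and 104.7 against 158.4 CPM.

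The other genes named as lowest were Cst3 with 103.5 CPM in ΔMAC and 217.8 CPM in FL/FL (0.475), the peroxiredoxin gene Prdx5 (0.494), S100a4 (0.519), the integrin β1 gene Itgb1 (0.547), the lysosomal genes Psap (0.557) and Ctss (0.604), and Rgs1 (0.573). Cst3, encoding cystatin C, and the lysosomal genes are highly expressed by macrophages. Summed over 9 monocyte and macrophage markers, all 9 of them seen in both libraries, naive-like cells had 32.3 CPM in ΔMAC and 543.3 CPM in FL/FL. These sums came from 186 and 2225 UMIs, of which Lyz2 alone gave 2 in ΔMAC and 1715 in FL/FL, or 0.347 CPM and 418.8 CPM. Lyz2 was lower in ΔMAC in Dapl1- and Lef1-free CD8, naive-like CD4 and B cells too, with log2 ratios of -5.87, -2.81 and -8.81. The sum is thus mostly Lyz2 in FL/FL and no even measure of macrophage transcripts in the libraries. The markers with at least 50 UMIs, Lyz2, Csf1r, Fn1 and Chil3, were all lower in ΔMAC. After thinning Lyz2 was seen in 0% of the naive-like cells in ΔMAC, with an upper bound of 0.51%, and in 7.33% in FL/FL (0.274% and 19.4% unthinned). In B cells the shares were 0.0878% and 9.74%. Without the cells that had at least 3 UMIs of other types' markers the log2 ratio of Cst3 was 0.32, against -1.07 with them, that of S100a4 was -0.00, against -0.95, and 9 genes in all were lower instead of 22, 5 of them among the 22. Lyz2 and Gzma, among the 22, are themselves markers by which these cells were left out. With 2 UMIs in ΔMAC, Lyz2 could mark cells almost only in FL/FL. These moves are thus partly fixed by the choice, and nothing is read from them. The part of other types' transcripts in the remaining differences was not tested.

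**Figure D5:**
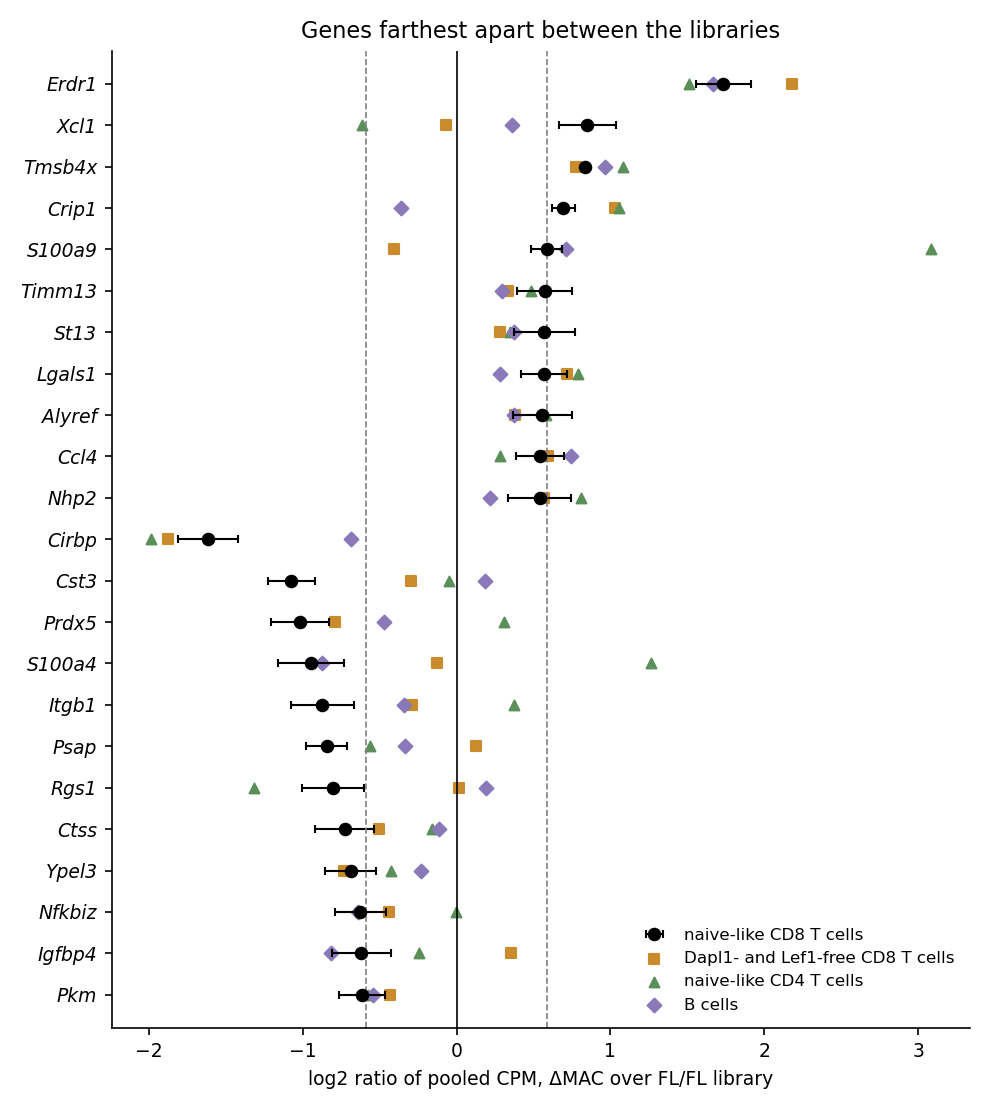
Log2 ratio of pooled CPM, ΔMAC over FL/FL library, for the named genes at the top and bottom of the ranking in naive-like CD8 T cells (black, exact conditional 95% intervals), beside the same ratio in Dapl1- and Lef1-free CD8 T cells, naive-like CD4 T cells and B cells; dashed lines mark 1.5-fold. Erdr1 and Tmsb4x lie right of 0 and Cirbp left of 0 in every class, while Cst3, Psap and Rgs1 lie on both sides of 0 in the other classes.

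Genes that define the resting state differed little between genotypes within the rule. The cells of both libraries were chosen by Dapl1 and Lef1, so this likeness is partly fixed by the choice. In Dapl1- and Lef1-free CD8 T cells Ccr7 stood at 232.1 CPM in ΔMAC and 85.2 CPM in FL/FL, and Tcf7 at 270.0 and 138.5 CPM. Within naive-like cells, of 24 measured naive and quiescence genes none (0) were 1.5-fold higher in ΔMAC and 1 was lower (Igfbp4). Their median log2 ratio was -0.04, or 0.12 with TMM factors. Over all 8389 genes with at least 50 UMIs 2.17% were higher, 10.8% lower and the median was -0.12. In naive-like cells Ccr7 had 423.3 CPM in ΔMAC and 375.1 CPM in FL/FL, Tcf7 342.0 and 331.1 CPM, Il7r 851.7 and 779.6 CPM, and Klf2 759.6 and 780.1 CPM. No gene (0) passed 1.5-fold among 17 genes of T cell receptor signalling (median -0.05), 20 nuclear oxidative phosphorylation genes (0.06), 84 ribosomal protein genes (0.10), 12 genes of MHC class I and peptide loading (-0.29), 10 heat shock genes (-0.14) and 9 glucocorticoid-responsive genes (0.11).

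Of 14 effector and cytotoxic genes 4 were lower (Gzma, Gzmb, Ifng and Zeb2) with a median of -0.42, which was 0.11 without the cells that carry other types' markers. Those cells were chosen in part by Gzma, counted as an NK cell marker and also a member of this list. The move of this median is thus partly fixed by the choice, and nothing is read from it. Of 16 homing and retention receptors 4 were lower, Ccr2, Cxcr6 and Itgae among them, with a median of -0.35. Of 23 type I interferon response genes 6 were lower (Ifit1, Ifit2, Ifit3, Isg20, Oasl2 and Ifitm3), with a median of -0.38, and -0.06 without those cells. Memory genes had 4 of 14 lower (Klrk1, Klrc2, Ly6a and Ifitm10), with a median of -0.17. Glycolysis genes had 3 of 17 lower (Slc2a1, Pkm and Slc16a3), with a median of -0.18. Over all genes with at least 50 UMIs 10.8% were lower and the median was -0.12. NK cell markers summed to 137.9 CPM in ΔMAC and 243.2 CPM in FL/FL, all 6 seen in both. Eomes and Gzma are among the 6 and are also genes of memory or effector CD8 T cells, so the sum is not of NK cells alone. The part of NK cell transcripts in these lists was not tested.

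In the remaining lists 1 or 2 members past the fold are not read as a result about the list. Over all genes with at least 50 UMIs 10.8% were lower and 2.17% higher, with a median of -0.12. NF-κB feedback genes had 2 of 9 lower (Nfkbia and Nfkbiz, median -0.29) and immediate early genes 1 of 16 lower (Atf3, median -0.23). Clock and cold-inducible genes had 1 of 12 higher (Clock) and 2 lower (Bhlhe40 and Cirbp). Cytokine receptors and survival genes had 1 of 20 higher (Il2ra) and 1 lower (Cish), and of 13 mitochondrially encoded genes 1 was higher (mt-Atp8). Of 6 measured inhibitory receptors Cd160 was higher, at 37.2 CPM in ΔMAC and 22.2 CPM in FL/FL. Among 15 transcription factors of the T lineage Myb was the exception, at 45.2 CPM in ΔMAC and 17.6 CPM in FL/FL, a ratio of 2.57 (1.97 to 3.38). Myb, a factor of progenitors and of memory cells that renew themselves, was seen in 144 of 729 ΔMAC cells and 43 of 506 FL/FL cells. In Dapl1- and Lef1-free CD8 T cells it had 54 UMIs in ΔMAC and 10 in FL/FL, or 49.9 CPM and 6.13 CPM.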

How the data were processed

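Droplet single-cell RNA sequencing (10x 3′ chemistry, kit version not given in the sources used here) was done on 1 library per genotype. What the authors deposited are UMI counts, raw, for every gene and barcode. Per the file headers they come from Cell Ranger 6.0.0. Genome build mm10 and Seurat 4.3.0 are named per the submitters' processing notes, both with no stated role. No barcode had under 502 UMIs. T cell receptor and immunoglobulin segments are not analysed here.

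From 27998 listed genes, rows of the same symbol were summed (27933 symbols). Barcodes with at least 300 genes and under 20% mitochondrial UMIs were kept, 8877 in ΔMAC and 9990 in FL/FL (72 and 64 removed). Scrublet in scanpy 1.11.5 (expected rate 0.08) called doublets, which stayed in except in 1 alternative. Free RNA was not subtracted. Pooled CPM carry exact Poisson intervals, shares Clopper-Pearson intervals and ratios exact conditional intervals, at 95%. Lists use genes with at least 50 UMIs. The ratio calculation was tested on simulated data. Named genes are the 12 highest and 12 lowest ratios between genotypes and against Dapl1- and Lef1-free CD8 T cells. Against naive-like CD4 T cells they are the 8 highest and 8 lowest. Ratios between classes were ranked by the library nearer to 1. Genes of the rule, ribosomal, mitochondrial, haemoglobin, Y-linked, Gm and Rik genes were left out. Between genotypes so were 11 genes whose level in the other kept cells of either library was more than 10 times that in naive-like cells. A few of the named and listed genes are counted but not reported here. List members are named beside these, and Gm26825, 5730508B09Rik and Hbb-bs were named after their values were seen. The cells, lists and rules were chosen with earlier results of these data known. Gene positions are from GENCODE M21 and promoters from RefSeq GRCm38.p6. TMM factors came from edgeR 4.0.16 in R 4.3.3, and the rest from pandas 2.3.3, scipy 1.17.1, numpy 2.4.6 and matplotlib 3.10.9 in Python 3.11.15.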

Additional observations from a re-analysis of the deposited data

Results flagged for a closer look

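The ratios of the shares of kept cells lay on opposite sides of 1 in some neighbouring T cell classes, which is what set these values apart. The ratio of ΔMAC over FL/FL was 1.62 (1.45 to 1.82) for naive-like CD8 T cells and 0.426 (0.307 to 0.583) for naive-like CD4 T cells. For Dapl1- and Lef1-free CD8 T cells it was 0.858 (0.711 to 1.03), an interval that includes 1. CD8 T cells with 1 UMI of Dapl1 or Lef1 went the way of the naive-like class, at 1.17 (0.931 to 1.47). With 1 library per genotype the difference was not tested. When cells were thinned to 1500, 3000 and 5000 UMIs, with shallower cells left out, the ratio of the Dapl1- and Lef1-free class was 1.05, 1.34 and 1.23. That was below the ratio of the naive-like class at each depth (1.35, 1.61 and 1.81). These 2 CD8 classes were then no longer on opposite sides of 1. Naive-like CD4 T cells stayed below 1, at 0.581, 0.584 and 0.473.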

How the results depend on the processing

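No paired analysis was possible because each genotype had 1 library. The ratio of the naive-like share (ΔMAC over FL/FL) stayed above 1 in all 10 alternatives for each of 3 denominators. It was 1.35 of kept cells with cells thinned to 1500 UMIs, 1.05 of CD8 T cells at 3000 UMIs, and, of cells with a Cd3 UMI, 1.49 at 1500 UMIs, 1.59 at 3000 UMIs and 1.62 without cells carrying other types' markers. Of CD8 T cells the ratio without those cells was 1.11, with an interval (0.955 to 1.29) that reaches 1. The thinnings to 3000 and 5000 UMIs, and every alternative for the neighbouring classes' shares, were chosen after seeing the data. Counts of genes past the fold moved more. Between genotypes, higher and lower, they were 36 and 16 with TMM factors, 43 and 48 with mitochondrial and ribosomal genes out of the total, 15 and 8 by the mean of the cells' own CPM, 23 and 31 with thinned cells, 182 and 905 at 50 UMIs with no CPM minimum, 13 and 14 without called doublets, and 12 and 9 without cells carrying other types' markers. The last also turned Cst3 to 0.32 (log2), by a choice of cells that uses Lyz2 and so acts unequally in the libraries. Against Dapl1- and Lef1-free CD8 T cells they were 11 and 29 with TMM factors, 8 and 63 with thinned cells, and 50 and 184 at 50 UMIs. Against naive-like CD4 T cells they were 93 and 79 at 50 UMIs. The causes of these moves were not tested, except that the 50 UMI minimum admits more genes. Of the 5 higher and 38 lower genes against Dapl1- and Lef1-free cells 4 and 26 were called in all 4 alternatives, and of the 6 and 15 against CD4 cells 6 and 5. Depth limits what can be said of genes near 1 UMI per class and of the 56 CD4 cells of ΔMAC.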
